A study of Homo sapiens with 3 samples.

Results

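CpG-dense windows with low methylation were studied in Hep3B cells, a human hepatocellular carcinoma line, and were 7016 of the 10236 CpG-dense windows found on the autosomes and of the 318599 autosomal 1 kb windows that held any compared CpG. They were selected on their own methylation level, which is the share of the bisulfite reads over a CpG that still show a C, so the level itself is given as a description and carries no test. A window is a fixed 1 kb stretch counted from position 1 of a chromosome, it is called CpG-dense with 40 or more CpGs of at least 10 reads in all 3 libraries, and it became a member when its level, averaged over its CpGs and then over the libraries, was below 10%.

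The study compared parental Hep3B cells with Hep3B SOX4-/- lines #1 and #2, in which SOX4, a transcription factor of the SOX family, was knocked out by CRISPR/Cas9 and which were kept in medium with puromycin. Each of the 3 cell lines gave 1 library, so the parental group has no replicate, each knockout line stands for 1 line, and no difference between parental and knockout cells can be set against a biological error of the parental cells. Per the study, 500 ng of genomic DNA was sheared to 150 to 200 bp, captured with a probe set for methylation sites (TruSeq Methyl Capture EPIC), treated with bisulfite and sequenced. The edit at SOX4 was not checked here, and puromycin, the editing and the history of each line cannot be told apart from the loss of SOX4.

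Most CpGs of the human genome are methylated, and methylated CpGs are lost over evolution by mutation, which leaves dense clusters of CpGs, called CpG islands, mainly where the germline keeps them free of methylation. Such islands usually cover the promoters of housekeeping genes and of many developmental regulators. Promoter islands that gain methylation in tumours are usually silent, which is why their level is followed in cancer cells.

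The promoters of 7 genes are shown because the results below turn on them. The promoters of PSMA3, a proteasome subunit, and RPL3, a ribosomal protein, stand for the many members with almost no methylated reads. PFKP, a phosphofructokinase of glycolysis, and MGMT, a DNA repair enzyme, have their start sites in windows that were lower in both knockout lines, and TUBB, a beta-tubulin, has its start site in the single window that was at least 5 percentage points higher in both. HOXA7 is a homeobox regulator near the 10% limit, and MTHFD2 is the folate enzyme that the study followed. The sequences are RefSeq promoters of GRCh38.p14, from 250 bases before to 50 bases after the start, 5′ to 3′ on the strand of the gene, and the capitals mark CpGs.
PSMA3: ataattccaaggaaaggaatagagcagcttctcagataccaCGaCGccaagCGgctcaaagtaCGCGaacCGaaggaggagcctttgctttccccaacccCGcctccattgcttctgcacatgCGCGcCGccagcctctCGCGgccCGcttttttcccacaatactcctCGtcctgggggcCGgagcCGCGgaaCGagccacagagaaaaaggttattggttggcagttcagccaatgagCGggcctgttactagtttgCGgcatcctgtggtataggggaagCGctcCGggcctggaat
RPL3: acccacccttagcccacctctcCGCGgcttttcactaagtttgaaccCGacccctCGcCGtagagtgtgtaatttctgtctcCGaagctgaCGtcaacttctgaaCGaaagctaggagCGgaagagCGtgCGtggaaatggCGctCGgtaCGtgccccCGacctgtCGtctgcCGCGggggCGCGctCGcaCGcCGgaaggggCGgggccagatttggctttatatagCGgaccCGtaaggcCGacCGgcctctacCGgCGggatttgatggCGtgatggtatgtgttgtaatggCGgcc
PFKP: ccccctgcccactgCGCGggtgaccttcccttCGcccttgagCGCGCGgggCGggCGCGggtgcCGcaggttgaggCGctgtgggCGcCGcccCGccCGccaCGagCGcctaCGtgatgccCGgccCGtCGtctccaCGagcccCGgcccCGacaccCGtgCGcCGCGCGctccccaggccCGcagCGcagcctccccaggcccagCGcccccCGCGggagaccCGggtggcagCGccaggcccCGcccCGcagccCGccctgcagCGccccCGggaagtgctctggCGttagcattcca
MGMT: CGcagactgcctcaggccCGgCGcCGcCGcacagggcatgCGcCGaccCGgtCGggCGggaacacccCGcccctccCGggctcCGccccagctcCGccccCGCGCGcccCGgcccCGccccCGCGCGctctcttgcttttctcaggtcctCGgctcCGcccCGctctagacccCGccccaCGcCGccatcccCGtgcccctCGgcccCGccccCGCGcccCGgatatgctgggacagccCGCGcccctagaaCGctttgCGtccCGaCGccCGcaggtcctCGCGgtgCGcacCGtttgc
TUBB: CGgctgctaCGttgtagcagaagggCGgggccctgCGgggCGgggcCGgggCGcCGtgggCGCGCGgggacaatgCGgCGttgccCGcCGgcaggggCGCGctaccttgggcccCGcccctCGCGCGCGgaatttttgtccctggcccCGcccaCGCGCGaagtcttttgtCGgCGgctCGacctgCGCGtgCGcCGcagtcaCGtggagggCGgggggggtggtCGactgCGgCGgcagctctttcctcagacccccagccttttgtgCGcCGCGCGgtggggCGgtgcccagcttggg
HOXA7: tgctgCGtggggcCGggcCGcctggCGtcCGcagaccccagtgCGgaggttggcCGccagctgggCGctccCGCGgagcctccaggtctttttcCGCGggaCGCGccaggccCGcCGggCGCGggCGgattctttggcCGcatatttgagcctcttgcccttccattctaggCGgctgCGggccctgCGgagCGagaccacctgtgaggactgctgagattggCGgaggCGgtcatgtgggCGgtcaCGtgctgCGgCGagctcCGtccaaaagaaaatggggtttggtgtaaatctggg
MTHFD2: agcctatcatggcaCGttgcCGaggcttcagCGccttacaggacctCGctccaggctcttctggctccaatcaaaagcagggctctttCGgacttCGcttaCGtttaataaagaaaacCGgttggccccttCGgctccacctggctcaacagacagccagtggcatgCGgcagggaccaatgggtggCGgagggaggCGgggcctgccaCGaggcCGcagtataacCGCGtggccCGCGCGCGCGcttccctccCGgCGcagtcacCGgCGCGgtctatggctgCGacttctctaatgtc

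In GRCh38.p14 these lie at chr14:58244593-58244892 on the + strand for PSMA3, chr22:39319574-39319873 on the - strand for RPL3, chr10:3068939-3069238 on the + strand for PFKP and chr10:129466991-129467290 on the + strand for MGMT. TUBB lies at chr6:30721388-30721687 on the + strand, HOXA7 at chr7:27156626-27156925 on the - strand and MTHFD2 at chr2:74198365-74198664 on the + strand. All window coordinates that follow are in GRCh37, the build of the files, and no coordinate was converted between the builds. A promoter was placed in the files by the spacing of its CpGs, as described under the processing.

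The PSMA3 promoter holds 22 CpGs, of which 19 were compared, and none of its 1783 reads over the 3 libraries was methylated, which allows a level of up to 0.168%. The RPL3 promoter holds 32 CpGs and gave 0.789% in parental cells, 0.140% in line 1 and 0.319% in line 2 over 23 compared CpGs. The MTHFD2 promoter was as low, at 0.653%, 0.239% and 0.269% over 27 CpGs. These 3 promoters therefore stayed under 1% in every library. The PFKP promoter, with 42 CpGs of which 36 were compared, gave 18.9% in parental cells against 6.09% in line 1 and 6.11% in line 2. The HOXA7 promoter gave 16.2% in parental cells, 9.71% in line 1 and 16.1% in line 2 over 21 compared CpGs, so that line 1 alone stood apart. MGMT had only 11 of 45 CpGs compared at its promoter and TUBB 25 of 43, and both promoters were at 0.622% or below in every library.

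The 10236 dense windows fell mainly into a low class. Of them, 6299 had a mean level below 5%, 717 lay between 5% and 10%, and 400 between 10% and 15%. Members made up 62.5% of the windows with 40 to 49 CpGs and 78.2% of those with 70 to 79. By chromosome they made up between 55.6% of the dense windows, on chromosome 21, and 82.9%, on chromosome 3. Near the limit, DAD1, an oligosaccharyltransferase subunit, has its start in a window at chr14:23058001-23059000 that stayed outside with 10.5%, 9.92% and 9.59%. The window at chr7:95951001-95952000, with the start of the mitochondrial carrier SLC25A13, was just inside with 13.8%, 7.87% and 8.35%.

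**Figure D1:**
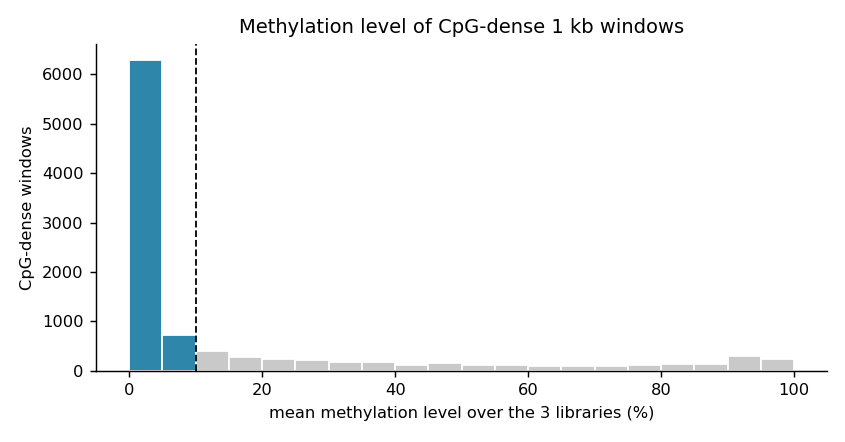
Number of CpG-dense 1 kb windows (y axis) by mean methylation level over the 3 libraries in percent (x axis, bins of 5 points). Blue bars left of the dashed line are the 7016 members, of which 6299 lie in the first bin, and grey bars are the 3220 other dense windows.

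The members held 397208 CpGs, with a median of 53 CpGs per window and a range of 40 to 124. The median depth of these CpGs was 37 reads for parental cells, 33 for line 1 and 46 for line 2. The mean level over the members was 1.81% in parental cells (SD over windows 2.60), 1.55% in line 1 (SD 2.19) and 1.59% in line 2 (SD 2.26), and the mean of the knockout lines was 1.57% ± 0.0271 (SD, n = 2). The medians were 0.551%, 0.512% and 0.532%, and the 90th percentiles over members were 5.79%, 4.76% and 5.02%. A mean level below 1% was found in 4260 members, or 60.7%. The rate at which bisulfite failed to convert unmethylated cytosines was not analysed here, and its part in levels this low was not tested.

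In 6 members no methylated read was found in any library. Of these, 5 hold the start of TPRA1, NCAPD2, VPS36, CHASERR or SDF2L1, a set named after its values were seen; NCAPD2 is a condensin subunit and VPS36 a subunit of an endosomal sorting complex. These windows had between 1827 and 4161 reads over the 3 libraries, which allows levels of up to 0.164% and 0.0721%. The deepest of them lies at chr12:6603001-6604000 and holds 40 compared CpGs. Such limits, and all intervals given here, cover counting error only, because reads copied by PCR are not independent molecules.

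The low level was not even within a window. Of the member CpGs, 0 methylated reads were found at 79.8% for parental cells, 81.7% for line 1 and 79.0% for line 2, and 63.0% had none in all 3. At the same time 1274 members, or 18.2%, held at least 1 CpG above 50% in some library, and 595 held one in all 3. In 2712 members, or 38.7%, every CpG was below 10% in every library. Among members with no member next to them, the parental level averaged 3.29% over the first 100 bases of the window and 1.21% over bases 501 to 600, with the knockout lines following the same course with 2.70% and 1.10% for line 1, and 2.94% and 1.06% for line 2.

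Start sites of genes were placed in 3966 members, or 56.5%, against 655 of the 3220 other dense windows, or 20.3%. Another 770 members had a start site only in an adjacent window and 2280 had none in or next to the window. The members held starts of 4877 genes, 4080 of them protein-coding, and 929 members held starts on both strands. Members with a start had a median level of 0.461%, 0.434% and 0.432% in parental, line 1 and line 2, and members with no start in or next to them 0.764%, 0.678% and 0.753%. Only promoters of at least 10 CpGs could be placed, so these counts leave out CpG-poor starts.

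The level was lowest at the start itself and rose away from it. In the parental library it averaged 0.635% over the 100 bases before the start and 0.858% over the 100 bases after it, against 8.34% between 700 and 601 bases before and 3.83% between 700 and 799 bases after. Line 1 gave 0.725% and line 2 0.558% just before the start, and 6.18% and 6.91% in the most distant bin before it. Beyond 200 bases, upstream flanks were higher than downstream flanks at the same distance in all 3 libraries, and the parental library was the highest of the 3 in each bin more than 100 bases before the start.

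**Figure D2:**
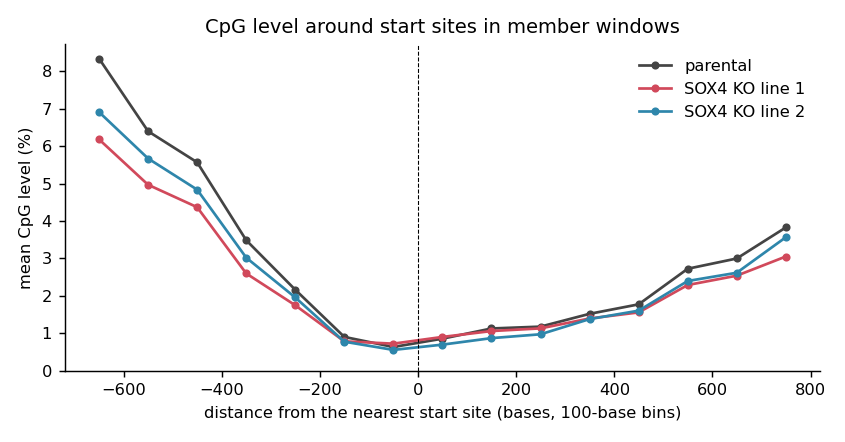
Mean methylation level of member CpGs in percent (y axis) by distance from the nearest placed start site in bins of 100 bases (x axis, positive is downstream), with 1 line per library. All 3 libraries are lowest beside the start, where the parental level is 0.635%, and highest in the most distant upstream bin, at 8.34%, 6.18% and 6.91%.

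The promoters placed in members were compared with those in other dense windows by their letters. Both sets had a median GC content of 66.3%, against 58.7% over all 35116 promoters of the table. Of the latter, 15307 held fewer than 10 CpGs and could not be placed. The placing rule thus makes all promoters poorer in CpGs than both sets, so shares over all promoters are no like comparison. The ratio of observed to expected CpGs was 0.882 in the 5666 promoters at members and 0.820 in the 807 at other dense windows. Motifs were searched on both strands, and a match is a description, not a site. The ETS motif CCGGAAG was in 23.6% of the promoters at members, 10.7% of those at other dense windows and 10.3% of all promoters. The YY1 motif AAGATGGC was in 5.86%, 1.24% and 2.89%, the NRF1-type motif TGCGCA in 17.2%, 11.6% and 8.24%, and the CRE motif TGACGTCA in 3.94%, 2.23% and 1.85%. The GC box GGGCGG was in 75.1%, 71.1% and 45.0%, and the E-box CACGTG in 10.8%, 11.4% and 7.26%. The CCAAT box was in 36.1%, 28.9% and 34.6%. TATAAA was rarer at members, with 3.95%, 6.57% and 11.5%, and the SOX motif, searched as AACAAAG and its forms with T in place of the first, the second or the last A, was in 10.02%, 11.9% and 20.4%.

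Runs of adjacent members were short. The 7016 members formed 6283 runs, of which 5609 were a single window, 624 were 2 windows and 44 were 3. The longest run, of 6 windows and 343 CpGs, lies at chr7:556001-562000 and holds the start of PDGFA, a platelet-derived growth factor chain, with levels of 1.83%, 2.55% and 2.29% in parental, line 1 and line 2. The next, of 5 windows and 293 CpGs, lies at chr2:232571001-232576000 and holds the start of PTMA, prothymosin alpha, with 1.90%, 0.902% and 0.810%. Runs of 4 windows hold the starts of ANXA2R at chr5:43040001-43044000, ZSWIM6 at chr5:60626001-60630000 and the heparan sulfate sulfotransferase HS3ST3B1 at chr17:14204001-14208000. The members with the most CpGs were at SREBF2, a regulator of cholesterol synthesis, with 124 CpGs and 0.594%, 1.50% and 1.06%, and at LINC01388, with 123 CpGs and 7.81%, 10.4% and 8.86%. USP36, a deubiquitinase, followed with 122 CpGs and 0.354%, 0.280% and 0.613%.

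Ribosomal protein genes often started in members. Of 62 placed ribosomal protein genes, 40, or 64.5%, had their start in a member and 0 in another dense window. A further 18 started in a window with fewer CpGs and 4 on a sex chromosome. Of 9679 placed protein-coding genes, 4080, or 42.2%, started in a member and only 516 in another dense window. A count of 0 in another dense window, here and in the lists below, is therefore not read as a trait of a list. The ribosomal members had median levels of 0.316%, 0.239% and 0.325% in parental, line 1 and line 2. RPL3 gave 0.374%, 0.105% and 0.219%, RPL7A 0.242%, 0.244% and 0.133%, RPL9 0.121%, 0.230% and 0.103%, and RPL10A 0.137%, 0.125% and 0.161%. Several ribosomal members lay higher. RPL31, with 10.8%, 1.79% and 5.26%, had the highest parental level, and RPL13 gave 4.83%, 4.35% and 5.50%, RPS3A 4.34%, 3.81% and 4.30%, RPL12 4.63%, 3.13% and 1.82%, and RPSA 2.35%, 5.72% and 0.742%, all 5 named after their values were seen. Of 28 placed proteasome genes, which encode the protease that degrades tagged proteins, 12, or 42.9%, started in a member, close to the share of all protein-coding genes, and 0 in another dense window, with medians of 0.255%, 0.524% and 0.275%. PSMA3 gave 0.0675%, 0.137% and 0.139%, PSMA5 0%, 0.376% and 0.109%, PSMA6 0.501%, 0.707% and 0.720%, and PSMB3 0.146%, 0.103% and 0.165%. PSMB9, an inducible subunit named after its values were seen, gave 2.03%, 8.20% and 3.91%, so that line 1 stood above the other libraries.

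Protein-coding genes with a start in a member had median levels of 0.428%, 0.406% and 0.408% in parental, line 1 and line 2. Replication genes had medians near these, and glycolysis genes higher ones in parental cells and line 1. Of 17 placed genes of replication licensing and the cell cycle, 8, or 47.1%, started in a member, beside 42.2% of all placed protein-coding genes. Of these genes 0 started in another dense window, beside 516 of 9679 placed protein-coding genes, and the 8 had medians of 0.371%, 0.309% and 0.347%. MCM2, a helicase subunit, gave 1.88%, 2.93% and 3.33%, MCM3 0.0788%, 0.244% and 0.179%, MCM7 0.492%, 0.374% and 0.515%, and the origin recognition gene ORC2 0.0270%, 0.0942% and 0.0883%. Of 13 placed glycolysis genes, 8, or 61.5%, started in a member, beside the same 42.2%, and 0 in another dense window, beside the same 516 of 9679. The 8 had medians of 1.10%, 1.90% and 0.355%. HK2, a hexokinase, gave 5.40%, 2.77% and 2.83%, PFKM 1.71%, 4.34% and 0.320%, and ALDOA, an aldolase, 0.500%, 0.315% and 0.391%. TPI1, the triosephosphate isomerase, named after its values were seen, gave 2.99%, 8.56% and 3.67%, with line 1 above the other libraries. An upstream start of PFKP lies in the member at chr10:3110001-3111000, which gave 11.7%, 4.40% and 7.63%, with the parental library above both lines.

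Genes of chromatin and development were divided between members and other dense windows. Of 12 placed Polycomb and chromatin genes, 5 started in a member and 1, UHRF1, in another dense window. The 5 are 41.7%, beside 42.2% of all placed protein-coding genes. EZH2, the Polycomb methyltransferase, gave 0.480%, 1.75% and 0.304%, RBBP4 0.749%, 1.13% and 0.391%, RING1 2.90%, 2.60% and 2.19%, and RNF2 0.548%, 0.359% and 0.378%. Of 42 placed homeobox regulators, 8 started in a member, 11 in another dense window and 23 in a window with fewer CpGs, and the 8 had medians of 2.47%, 1.73% and 2.16%. HOXA3 gave 6.65%, 4.70% and 4.92%, HOXA7 11.2%, 5.36% and 9.96%, PAX6, an eye and brain regulator, 1.10%, 1.89% and 1.82%, and LHX4 1.90%, 0.722% and 1.27%. At the other end, the dense window with the start of HOXA9 gave 88.7%, 84.3% and 90.8% and is no member.

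Few liver genes could be placed. Of 9 placed liver transcription factors, 3, or 33.3%, started in a member, beside 42.2% of all placed protein-coding genes, and 0 in another dense window. GATA6 gave 4.45%, 1.06% and 0.239%, XBP1, a regulator of secretory capacity, 0.146%, 1.04% and 0.0307%, and NR2F2 2.20%, 1.10% and 1.00%. Of 18 plasma protein and enzyme genes of hepatocytes in the promoter table, 2 could be placed and 0 started in a dense window. Of 11 placed germline genes, 0 started in a member and 3 in another dense window, of which DAZL gave 86.2%, 81.1% and 80.7%. Over all 9679 placed protein-coding genes, 42.2% started in a member and 516 genes in another dense window.

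Of 18 placed genes from a list of tumour suppressors often methylated in liver cancer, 8 started in a member and 2 in another dense window. The 8 are 44.4%, close to the 42.2% of all 9679 placed protein-coding genes, of which 516 started in another dense window. CDKN2A, a locus of cell cycle inhibitors, gave 0.435%, 0% and 0.0658%, with 0 methylated reads of 633 in line 1. The start placed for it is the upstream one, from which the ARF transcript begins, so these values do not describe the p16 promoter. APC, a regulator of beta-catenin, gave 1.22%, 3.18% and 0.566%, and DKK1, a secreted Wnt antagonist, 0.219%, 0.267% and 0.119%. MGMT gave 7.60%, 1.40% and 1.55%, with the parental library above both lines. GSTP1, a glutathione transferase in a dense window outside the members, gave 84.6%, 70.1% and 74.1%.

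Of the 8 placed genes that the study followed, 3, or 37.5%, started in a member, all in folate metabolism. The share of all placed protein-coding genes was 42.2%. The MTHFD2 window at chr2:74425001-74426000, with 56 CpGs, gave 9.71%, 7.97% and 10.5%, although the promoter printed above was below 1% in each library, so the methylated reads lay in the rest of the window. TYMS, thymidylate synthase, gave 0.272%, 0.644% and 0.532%. MTHFD1L, a mitochondrial enzyme of the same pathway, gave 0.460% in parental cells and 0.429% in line 2 against 6.88% in line 1.

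The members were then compared between parental and knockout cells. The mean difference from parental was -0.257 percentage points in line 1 and -0.219 in line 2, the lines differed from each other by -0.0383, and the knockout mean differed from parental by -0.238. The medians were smaller, at -0.0639 for line 1 and -0.0457 for line 2. Over the other dense windows the mean differences were -5.16 for line 1 and -2.87 for line 2, and over all 111495 autosomal windows with 5 or more CpGs they were -4.71 and -2.46. The mean level was lower than parental in both lines on every autosome, with line 1 between -0.408 on chromosome 7 and -0.00438 on chromosome 21. By window, 2912 of the 7016 members were lower in both lines and 2021 were higher in both, counting differences of any size. Over the 3220 other dense windows these counts were 2300 and 410, and over all 111495 windows 61735 and 22205. Both differences use the same parental library. The sign of the difference between the lines turned positive with other selection limits, at 0.0513 with 60 or more CpGs, 0.0236 with a level below 5% and 0.00802 with members chosen by the parental library alone.

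The selection bounds these differences, since a window that rises or falls far leaves the class, so the following counts are read as descriptions. At least 5 points higher than parental were 42 members in line 1, against 5.98% of all windows tested, and 5 in line 2, against 5.25%. At least 5 points lower were 115 members in line 1, against 35.5% of all windows tested, and 44 in line 2, against 24.6%. Between the knockout lines, 37 members were higher in line 1, against 5.89%, and 24 lower, against 23.3%. In both lines together, 1 member was higher, against 2.79%, and 28 were lower, against 21.3%. When members were chosen by the parental level alone, 8 were higher and 12 lower in both lines, so the excess of falls depends on how the members are chosen.

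**Figure D3:**
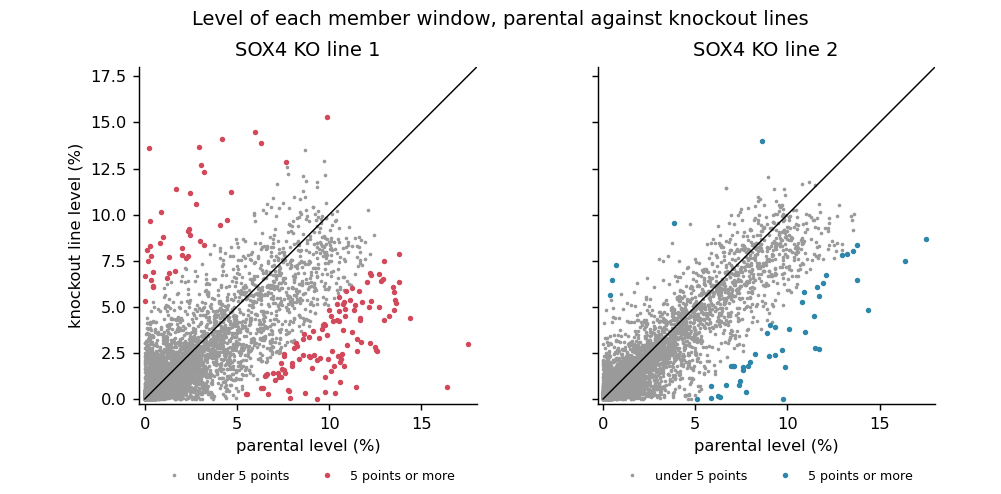
Methylation level of each member window in a knockout line (y axis, percent) against the parental library (x axis, percent), line 1 on the left and line 2 on the right, with the line of equality. Coloured points differ by 5 points or more, which holds for 42 windows above and 115 below the line in line 1, and for 5 and 44 in line 2.

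Where the parental level was low to begin with, the knockout lines were slightly higher on average. In the 4287 members below 1% in parental cells the mean level was 0.323%, against 0.481% in line 1 and 0.411% in line 2, and 1593 of them were higher and 1301 lower in both lines. In the 846 members at 5% or above in parental cells the mean was 7.86%, against 5.66% and 6.47%, and 593 were lower and 103 higher in both lines. Both groups were selected on the parental value, so these differences are descriptions. When the same limit of 5% was set on line 1, 648 members had 7.15% in parental cells, 7.21% in line 1 and 6.71% in line 2.

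The CpGs of the members were tested one by one with a 2-sided Fisher exact test between each pair of libraries, adjusted over all 2238764 CpGs compared and called at an adjusted p under 0.05 with a difference of at least 25 points. The test compares libraries, not conditions. Of the 397208 member CpGs, 586 were higher in line 1 than in parental cells, against 0.599% of all CpGs compared, and 1180 were lower, against 4.46%. In line 2, 60 were higher, against 0.0831%, and 175 lower, against 0.713%. Between the lines, 188 were higher in line 1, against 0.184%, and 239 lower, against 1.07%. In both lines, 40 were higher, against 0.0581%, and 145 lower, against 0.6%.

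A CpG could be called lower only if its parental level was at least 25%, and 6476 member CpGs had such a level. Of these, 2.24% were called lower in both lines, 18.2% in line 1 and 2.70% in line 2, beside 1.17%, 8.68% and 1.39% of all 1150625 compared CpGs with such a level. The mean level of the 6476 member CpGs was 48.3% in parental cells, 33.6% in line 1 and 39.2% in line 2. That of the 1150625 was 80.3%, 72.5% and 76.0%, so the sets are unlike. Members were chosen for a low mean over all 3 libraries and these CpGs for their parental level. The shares are therefore descriptions. The 145 CpGs lower in both lines fell into 105 members, and the 40 higher in both into 34. Of the former, 87 lay in the first or last 200 bases of the window, or 60%, beside 33.4% of all member CpGs and 54.5% of those at 25% or above in parental cells. In members with a start, 16 of 73 such CpGs lay within 250 bases of it, or 21.9%, beside 68.2% of all CpGs there and 24.2% of those at 25% or above.

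The 5 members with the largest fall in both lines, ranked by the smaller of their differences, are given with every library. The window at chr10:3111001-3112000, with 50 CpGs and a start of PFKP, gave 14.4% in parental cells, 4.39% in line 1 and 4.85% in line 2, on 1257, 1186 and 1712 reads. Its methylated CpGs lay mainly just upstream of the start, and 3 of them were called lower in line 1 and 0 in line 2. At 120 bases upstream of the start, the methylated reads were 7 of 15 for parental cells, 0 of 21 for line 1 and 0 of 15 for line 2, with adjusted p = 0.0168 for line 1 and 0.223 for line 2 by the Fisher exact test. The knockout lines lay close together, and both lie below the parental library by the choice of the window. With a minimum of 20 reads per CpG the smaller difference went from -9.54 to -1.48 points, so the fall rests on CpGs with fewer than 20 reads in at least 1 library.

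The window at chr16:2034001-2035000, with 67 CpGs and the start of GFER, a sulfhydryl oxidase of mitochondria, gave 11.5%, 3.23% and 2.78%. In it 52 CpGs were lower in both lines and 1 was higher, none was called, and the smaller difference went from -8.27 to -4.72 with 20 reads or more. No start was placed in the other windows of this set. The window at chr15:70391001-70392000 gave 16.4%, 0.645% and 7.47%, with 8 of its 56 CpGs called lower in line 1 and 0 in line 2. The window at chr12:26986001-26987000 gave 17.5%, 2.96% and 8.70%, with 5 of 41 CpGs called in line 1 and 0 in line 2. In both of these line 2 lay between line 1 and parental cells. The window at chr8:42751001-42752000 gave 9.78%, 0.352% and 0% on 740, 599 and 862 reads, with none of 40 CpGs called, and its smaller difference went from -9.43 to -3.12 with 20 reads or more.

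Of the 5 members with the largest rise in both lines, TUBB led. The window at chr6:30689001-30690000, with 46 CpGs, gave 0.353% in parental cells, 7.74% in line 1 and 5.62% in line 2. The rise lay beyond the printed promoter, where 8 CpGs from 376 to 464 bases downstream of the start had between 0 and 1 methylated reads each in parental cells. Of these, 7 were called in line 1 and 4 in both lines. At 384 bases downstream, the methylated reads were 0 of 55 for parental cells, 22 of 41 for line 1, or 53.7% (95% interval 37.4 to 69.3), and 22 of 58 for line 2, or 37.9% (25.5 to 51.6), with adjusted p = 1.90e-08 and 4.64e-05 by the Fisher exact test. Intervals are exact Clopper-Pearson intervals. The CpGs nearer to the start stayed at or below 13.0% in all libraries.

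The other rises, smaller than at TUBB in line 2, held few or no called CpGs. In line 1 the rise was 7.38 points at TUBB, and it was larger in 3 of the other windows, at 7.93, 7.77 and 9.62 points on chromosomes 20, 14 and 2. The window at chr20:39766001-39767000, with starts of PLCG1, a phospholipase C, and PLCG1-AS1, gave 0.145%, 8.08% and 4.82% on 662, 793 and 672 reads with no CpG called. Without a placed start, the window at chr11:69632001-69633000 gave 4.69%, 11.2% and 9.48%, that at chr14:68066001-68067000 0.990%, 8.76% and 5.71%, and that at chr2:129075001-129076000 3.05%, 12.7% and 7.61%. In all of these the parental library was the lowest, which the ranking requires, and line 1 was the highest. The last went from 4.55 to 2.22 points with 20 reads or more and to 2.27 with levels weighted by reads.

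**Figure D4:**
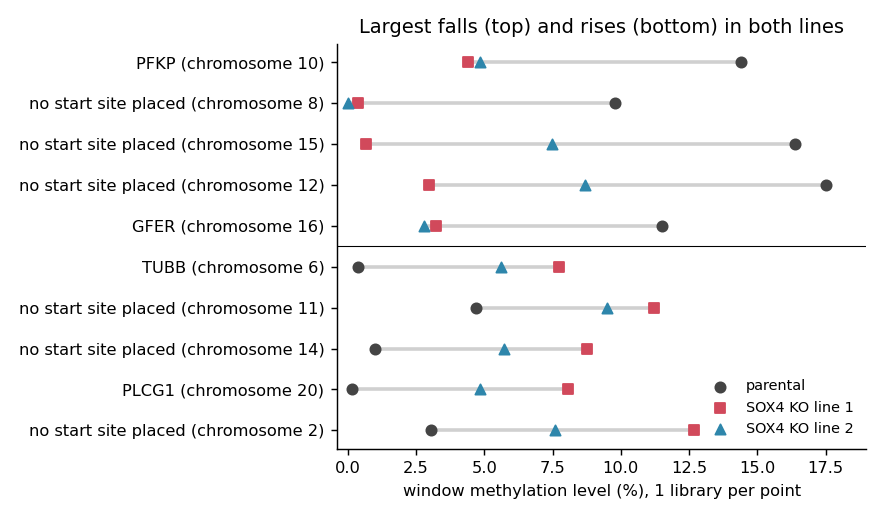
Methylation level in percent (x axis) of the 5 members with the largest fall in both knockout lines, above the line, and the 5 with the largest rise, below it, with 1 point per library. Parental cells range from 9.78% to 17.5% among the falls and from 0.145% to 4.69% among the rises. Both knockout lines lie on the same side of them in each window because the ranking requires it.

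Among the 28 members at least 5 points lower in both lines, the starts of 13 genes were placed. Beside PFKP, GFER, MGMT, RPL31 and SLC25A13 these were, chosen after their values were seen, ANXA2, an annexin, with 11.5%, 0.634% and 4.50%, FUCA1, a lysosomal fucosidase, with 7.86%, 0.0556% and 1.78%, and PLLP, with 7.97%, 1.80% and 2.00%. SLC16A12 gave 10.1%, 1.51% and 3.79%, PLA2G7, a secreted phospholipase, 13.3%, 4.49% and 7.89%, and TSG101, an endosomal sorting protein, 6.65%, 1.35% and 0.748%. A window shared by NFS1 and ROMO1 gave 8.24%, 2.85% and 2.45%. The parental library is the highest in each of these windows because they were chosen for falling in both lines.

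Some of these falls reached the promoter stretch, from 250 bases before to 50 after the start. The mean level there was 18.9%, 6.09% and 6.11% at PFKP, 12.1%, 4.06% and 1.37% at NFS1, and 7.77%, 3.04% and 0.714% at SLC25A13. No CpG was called in the NFS1 and SLC25A13 windows, and at PFKP 3 were called lower in line 1 and 0 in line 2. At MGMT and ANXA2 the mean level of the promoter stretch was at most 0.370% in every library, and the falls lay farther from the start. In the MGMT window at chr10:131265001-131266000, 4 CpGs at positions -502 to -437 relative to the start were called lower in both lines, with 35.7% to 55.2% in parental cells, 0% to 2.63% in line 1 and 0% to 5.71% in line 2 and smallest adjusted p of 7.44e-06 and 0.000286 by the Fisher exact test. In the ANXA2 window at chr15:60690001-60691000, 3 CpGs at positions -718 to -642 were called lower in both, with 44.1% to 64.3%, 0% to 8.11% and 8.51% to 20.5%. Members with 3 called CpGs each were also found at CENPS, a centromere protein, at positions -464 to -426 with 81.0% to 89.8% in parental cells, at DYRK3, a kinase, at positions -714 to -486 with 43.9% to 89.3%, at ERN1, a sensor of unfolded proteins, at positions -454 to -395 with 45.0% to 70.8%, and at TUBB2B, another beta-tubulin, at positions 850 to 860 with 39.5% to 54.5%. In all 6 windows the CpGs called lower in both lines lay outside the promoter stretch.

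**Figure D5:**
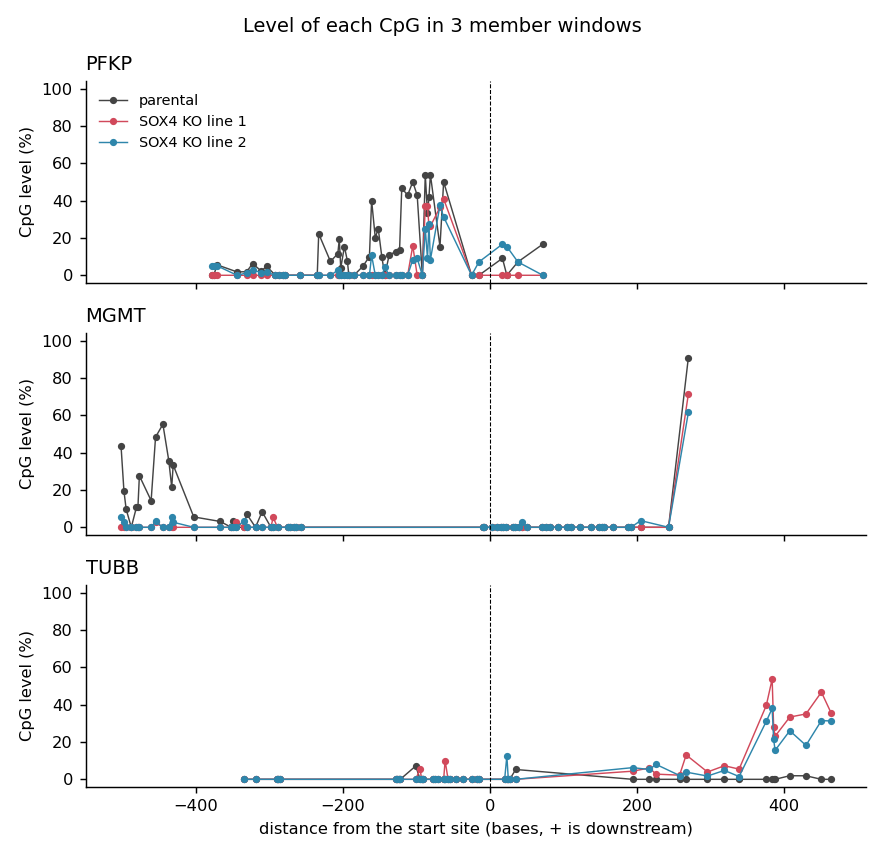
Methylation level of each compared CpG in percent (y axis) by distance from the start site in bases (x axis) in the member windows at PFKP, MGMT and TUBB, with 1 colour per library. Parental levels are high just upstream of PFKP and at positions -502 to -437 of MGMT, and the knockout lines are high from 376 to 464 bases downstream of TUBB.

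Read depth differed between chromosomes, and its part in these results was not tested. The ratio of member reads to those of parental cells was divided by its median over the chromosomes. It was 1.38 in line 1 and 1.18 in line 2 on chromosome 11, and 0.740 and 0.868 on chromosome 21. On chromosome 1 it was 1.15 and 1.08, and on chromosome 13 0.861 and 0.937. The mean difference of members was -0.378 for line 1 and -0.268 for line 2 on chromosome 11, and -0.00438 and -0.126 on chromosome 21. It was -0.230 and -0.176 on chromosome 1, and -0.372 and -0.260 on chromosome 13.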

How the data were processed

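The deposited files give, for each cytosine of a CpG and strand, counts of total, CpG-context and methylated reads with no normalization, and a methylation level as a fraction that the authors computed from them. The build is GRCh37 (hg19) per the submitters' processing notes; the aligner, caller, filters and duplicate removal are not given in the sources used here. The library totals were 104702738 CpG reads for parental cells, 96987706 for line 1 and 133170621 for line 2, with medians of 31, 28 and 39 reads over the 2238764 CpGs compared, so single CpGs carry wide intervals. Counts of both strands were summed, and levels were recomputed as methylated over context reads.

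The members and gene lists were chosen with earlier results of these data known. Each pair of libraries was compared per CpG by Fisher's exact test with Benjamini-Hochberg adjustment, which was tested on simulated data first. Windows named were the 5 largest falls and rises in both lines, the 3 largest differences between lines in each direction, the longest runs, the most CpG-rich members, those next to the 10% limit, and up to 4 genes per list by list order; other names were chosen after their values were seen. NumPy 2.4.6, SciPy 1.17.1, Numba 0.67.0, pandas 2.3.3 and Matplotlib 3.10.9 were run under Python 3.11.15.

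Start sites and promoter features had been planned only for an annotation of the build of the files. None of that build was used here, so RefSeq promoters of GRCh38.p14 were matched to the CpG positions of the files by the spacing of their CpGs, from seeds of 5 spacings, with at least 10 CpGs, 50% of them shared, a single match on the same chromosome and an offset within 1 kb of that of a neighbour. Of 35116 promoters, 19809 had enough CpGs and 14667 were placed. The promoter table is not complete, and a gene can have several starts, of which 1 in a member was preferred. No coordinate was converted. Alternatives covered the coverage minimum, read weighting, a shift of 500 bp, the CpG and level limits, the sizes called, the adjusted p, selection by parental cells and leaving out each line.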

Additional observations from a re-analysis of the deposited data

Results flagged for a closer look

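Of 7016 members, 2912 were lower and 2021 higher than parental cells in both knockout lines, counting differences of any size. Over all 111495 autosomal windows tested these counts were 61735 and 22205. Whether members moved alike less often than all windows was not tested. The 6 members given here, 3 in each direction, had the largest differences between the lines, as line 1 minus line 2 in percentage points. MVD, an enzyme of sterol synthesis, and SNAI3-AS1 start in the window at chr16:88729001-88730000, which gave 0.222% in parental cells, 13.6% in line 1 and 0% in line 2, a difference of 13.6; 12 of its 54 CpGs were above 20% in line 1 and 0 in the others, and no CpG was called. ATG12, an autophagy protein, and AP3S1 start in the window at chr5:115177001-115178000, with 9.90%, 15.3% and 1.72%, a difference of 13.6 with 7 CpGs called between the lines. No start was placed in the other windows. The window at chr8:74888001-74889000 gave 2.93%, 13.6% and 0.529%, a difference of 13.1. The window at chr21:46294001-46295000 gave 10.3%, 0.337% and 10.2%, a difference of -9.91 with 1 CpG called. The window at chr2:19561001-19562000 gave 11.5%, 2.60% and 11.6%, a difference of -9.03 with 4 CpGs called. The window at chr2:134024001-134025000 gave 8.61%, 6.81% and 13.98%, a difference of -7.17 with 0 CpGs called. Each line is 1 library, and the windows were picked for their difference, so none of these was tested over replicates.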

How the results depend on the processing

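Over all members, the mean difference from parental cells stayed below 0 in both lines under every alternative setting. The counts of windows and CpGs moved with the limits. Subsets of the members differed. Those below 1% in parental cells averaged 0.323% there, 0.481% in line 1 and 0.411% in line 2. Those at 5% or above in line 1 averaged 7.15% in parental cells and 7.21% in line 1. No paired analysis was possible because only 1 library stands for parental cells. Depth limits single CpGs, and a window needs many CpGs of 10 or more reads, so sparsely captured islands are left out. The cause of the changes below was not tested. Of 258 alternative values over 43 results and 16 settings, 122 stayed within the limits set for a change, 133 moved and 3 changed sign.

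The mean levels in parental cells, line 1 and line 2 were 1.88%, 1.62% and 1.65% with 5 or more reads per CpG, 1.61%, 1.40% and 1.42% with 20 or more, 1.86%, 1.59% and 1.64% with 30 or more CpGs, 1.59%, 1.46% and 1.41% with 60 or more, 1.10%, 0.984% and 0.961% below a level of 5%, 3.05%, 2.57% and 2.72% below 20%, and 1.66%, 1.52% and 1.51% when chosen by parental cells. Read weighting gave 1.78% in parental cells and 1.52% in line 1, and windows shifted by 500 bp 1.75% in parental cells and 1.54% in line 2. The members numbered 3917 with 20 or more reads and 2443 with 60 or more CpGs.

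The differences from parental of line 1, line 2 and their mean were -0.211, -0.190 and -0.200 with 20 or more reads, -0.132, -0.184 and -0.158 with 60 or more CpGs, -0.120, -0.144 and -0.132 below 5%, -0.480, -0.331 and -0.405 below 20%, and -0.140, -0.148 and -0.144 by parental selection. Shifted windows gave -0.206 for line 1 and -0.205 for the mean. The difference between the lines was 0.0513 with 60 or more CpGs, 0.0236 below 5%, 0.00802 by parental selection, -0.150 below 20% and -0.00169 in shifted windows.

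For windows past the size, higher then lower than parental, line 1 gave 84 and 178 with 5 or more reads, and 13 and 49 with 20 or more. It gave 301 and 628 at 2 points, 2 and 5 at 10 points, and 53 and 52 by parental selection. Line 2 gave 20 and 82, 0 and 14, 114 and 419, 0 and 0, and 12 and 25 under the same settings, and 9 higher with read weighting. Both lines gave 7 and 54, 0 and 10, 50 and 314, 0 and 0, and 8 and 12, with 6 higher by read weighting and 2 in shifted windows. Line 1 against line 2 gave 79 higher with 5 or more reads, and 11 and 7 with 20 or more. It gave 307 and 300 at 2 points, 5 and 0 at 10 points, and 38 and 14 by parental selection.

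For CpGs called, line 1 gave 352 higher and 614 lower with 20 or more reads and 106 and 247 at 50 points. Line 2 gave 119 higher at 10 points, 0 and 21 at 50 points, and 25 and 77 at an adjusted p under 0.01. Both lines gave 25 and 93 with 20 or more reads, 86 higher at 10 points, 0 and 15 at 50 points, and 17 and 67 at an adjusted p under 0.01. Line 1 against line 2 gave 113 and 132 with 20 or more reads, 459 lower at 10 points, 23 and 35 at 50 points, and 92 and 116 at an adjusted p under 0.01. With 20 or more reads there were 3688 runs, the longest of 3 windows, and 566 members with a CpG above 50%.

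Leaving out 1 knockout line gave 6973 to 7008 members, parental levels of 1.74% to 1.80%, a line 2 level of 1.54%, a knockout difference of -0.261 to -0.196, 8 to 40 windows higher and 37 to 115 lower, and 63 to 573 CpGs higher and 164 to 1187 lower in the remaining line; these counts need 1 line instead of both, which by construction is easier to meet. In that fit line 2 alone had 8 windows higher.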

Other observations

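Selection by the parental library alone brings in windows that rise out of the low class in the knockout lines. The largest of these by both lines, at chr6:21588001-21589000 with 69 CpGs, gave 0.164% in parental cells, 39.6% in line 1 and 11.3% in line 2. No start was placed in it, and its distance from SOX4, the edited gene, was not measured here. A window at chr18:9102001-9103000, with the start of NDUFV2, a subunit of respiratory complex I, gave 4.85%, 18.5% and 15.6%. Neither is a member, because the mean over the libraries passes 10%.

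The 6215 windows next to members that are no members themselves and hold 5 or more CpGs had median levels of 3.07% in parental cells, 2.35% in line 1 and 2.88% in line 2, with mean differences from parental of -1.69 in line 1 and -0.774 in line 2.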
